A study of Mus musculus with 7 samples.

Results

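The genes described here encode the proteins of the cytosolic ribosome, and they were measured in mouse T-cell leukemias caused by ICN1, the intracellular NOTCH1 fragment that signals without ligand, or by TEL-JAK2, in which fusion to TEL keeps the JAK2 kinase switched on. Members were all genes whose symbol consists of Rpl or Rps and a number, with or without one of the letters a, x, y or l, or is Rplp0, Rplp1 or Rplp2, and which had at least 1 probe set annotated with that symbol alone. This gave 45 of the 18193 genes measured in this way, of which the symbol assigns 22 to the large subunit, 21 to the small subunit and 2 to the stalk. The 21 include Rps4l, which RefSeq lists as a transcribed pseudogene. A further 28 matching symbols, among them Rpl5, Rpl10 and Rplp1, stand only on probe sets that carry several symbols, and were not analysed here by name. No measured value was used to choose the members, except that each gene is represented by whichever of its probe sets had the highest mean across all 7 arrays.

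Each of 7 arrays held RNA of 1 leukemic cell suspension from a terminally ill C57Bl/6 mouse. The ICN1 group had 3 arrays of bone marrow cells and the TEL-JAK2 group 4 arrays of thymus cells. Genotype and tissue changed together and cannot be told apart. The sources used here give neither age nor the promoter or vector that drives either oncogene, and no sort of the leukemic cells is named. In such unsorted bulk RNA, fewer cells of a type and less RNA per cell cannot be told apart. The sample titles carry different identifiers but do not state that the arrays are separate animals, so the p-values may reflect only the spread between these samples, which may be technical.

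The cytosolic ribosome translates messenger RNA into protein. Its small subunit reads the message, its large subunit joins amino acids, and the acidic stalk on the large subunit recruits the elongation factors. Nearly all of its proteins are needed in equal number, so cells keep the genes coordinated. Their messages begin with a run of pyrimidines, the TOP motif, through which mTOR signalling and the protein LARP1 control their translation. In T-cell leukemia, mutation or loss of RPL5, RPL10, RPL11 and RPL22 is well known, and MYC, a target of NOTCH1 in these cells, raises transcription of ribosome genes.

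The starts of 6 members are shown first, because the 3 genes that passed the test, the paralog that stood out in 1 array, its parent gene and a stalk gene carry different letters at the start. Sequences are from RefSeq, build GRCm38.p6, in the direction of transcription, from 80 bases before to 20 bases after the annotated start. Capitals mark pyrimidine runs of at least 6 bases that touch the 20 bases on either side of the start.
Rpl37 (chr15:5116533-5116632, + strand): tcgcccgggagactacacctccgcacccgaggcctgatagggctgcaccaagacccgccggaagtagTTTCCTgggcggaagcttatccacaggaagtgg
Rpl12 (chr2:32961632-32961731, + strand): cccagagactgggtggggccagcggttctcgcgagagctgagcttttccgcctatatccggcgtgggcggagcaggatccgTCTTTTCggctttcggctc
Rpl14 (chr9:120571437-120571536, + strand): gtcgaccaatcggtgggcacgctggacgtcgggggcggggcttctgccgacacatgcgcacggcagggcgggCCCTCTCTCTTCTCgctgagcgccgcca
Rpl39l (chr16:10170148-10170247, + strand): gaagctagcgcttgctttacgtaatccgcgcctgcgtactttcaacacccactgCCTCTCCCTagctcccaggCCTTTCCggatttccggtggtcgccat
Rpl39 (chrX:37085203-37085302, - strand): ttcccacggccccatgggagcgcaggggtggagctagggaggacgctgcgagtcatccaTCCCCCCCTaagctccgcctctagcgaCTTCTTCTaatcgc
Rplp2 (chr7:141447571-141447670, + strand): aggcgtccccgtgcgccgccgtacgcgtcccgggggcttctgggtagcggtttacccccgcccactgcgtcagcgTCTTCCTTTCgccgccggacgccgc
In Rpl14 and Rplp2 the run of capitals reaches across the annotated start, which follows the 80th letter.

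Promoters, taken as 250 bases before to 50 bases after the start, were found for 39 of the 45 members. A pyrimidine run of at least 6 bases touching the 20 bases on either side of the start was present for 29 of the 39 members (74.4%), against 47.8% of 27025 genes with a promoter in the same table. The letters CCGGAAG, bound by ETS factors, stood on either strand of at least 1 promoter for 19 of the 39 members (48.7%), against 9.93% of all genes. The letters AAGATGGCG, known from the factor YY1, were found for 2 members (5.13%) and for 1.64% of all genes. Rpl37 holds CCGGAAG within the printed window, Rpl39, Rpl39l and Rplp2 elsewhere in their promoters, and Rpl12 and Rpl14 do not hold these letters. These are matches of letters in fixed windows and describe the set.

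Before the results, 2 features of the arrays need to be stated. ICN1 replicates 1 and 2 read Y-linked genes and Xist together: Eif2s3y stood at 8.93 and 9.41 and Xist at 11.51 and 11.78, while in each of the other 5 arrays only one of these was high. Results are therefore also given without these arrays, from a fit in which the lone ICN1 array is assumed to vary like the TEL-JAK2 arrays. Erythroid markers, as a list of 9 measured genes, averaged 11.77 to 12.09 in ICN1 and 5.0 to 5.5 in TEL-JAK2, all 9 being lower in TEL-JAK2. Granulocyte genes (6.18 to 7.83 in ICN1, 5.22 to 5.64 in TEL-JAK2), macrophage genes (8.95 to 10.34, 6.38 to 8.69) and megakaryocyte genes (6.89 to 8.58, 5.63 to 5.84) had 5 of 11, 5 of 10 and 4 of 5 members lower, with none higher. Thymic epithelial genes (4.89 to 5.30, 5.88 to 6.35) had 3 of 8 higher, and B-lineage genes (6.23 to 8.05, 6.96 to 8.21) 1 of 7 higher. The 3 thymic epithelial genes were Epcam, with by far the largest difference (6.15), Aire (0.87) and Foxn1 (0.33, averaging 4.85 in TEL-JAK2). The other 5 were not called and lay between -0.20 (Ccl25) and 0.93 (Krt8). The T-lineage list read 11.40 to 11.60 in ICN1 and 11.97 to 12.11 in TEL-JAK2, with 5 of 8 genes higher and 1 lower. The part of these cells in the values of the ribosomal protein genes was not tested.

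The ribosomal protein genes differed little between the leukemias. In the limma fit of all 18193 genes, with calls made where the p-value adjusted by Benjamini-Hochberg was under 0.05, 1 member was higher in TEL-JAK2 (Rpl37), 2 were lower (Rpl12 and Rpl14) and 42 were not called. That is 6.67% of the members, where 24.1% of all genes were called, 11.9% higher and 12.2% lower. The groups did not overlap in 12 members (26.7%), against 34.3% of all genes. The median difference of the members, TEL-JAK2 minus ICN1 on the log2 scale, was 0.03 and that of all genes 0.04. The median size of the difference, regardless of sign, was 0.07 for the members and 0.23 for all genes. All of these values rest on the authors' scaling of the arrays. With each array centred on the mean of 4 CD3 chain genes (Cd247, Cd3g, Cd3e and Cd3d), the median of all genes moved to -0.58, 0 members were higher and 35 lower (77.8%, where 62.7% of all genes were lower and 4.33% higher), and the median difference of the members was -0.59.

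**Figure D1:**
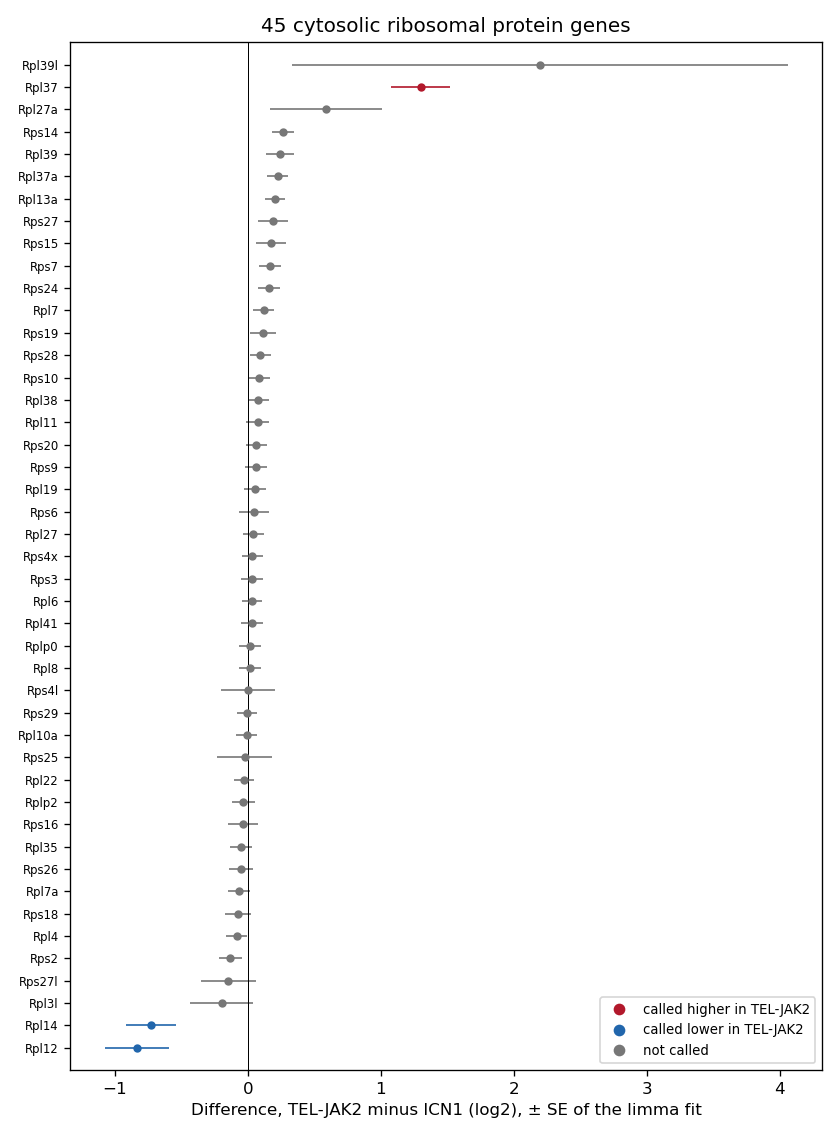
Difference of each of the 45 members, TEL-JAK2 minus ICN1 on the log2 scale (horizontal axis), with the SE of the limma fit as bars, for 3 ICN1 and 4 TEL-JAK2 arrays. Rpl37 was called higher and Rpl12 and Rpl14 lower, the widest bar is that of Rpl39l, and most other points lie close to 0.

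The largest called difference was that of Rpl37, a zinc-binding protein of the large subunit. Rpl37 read 9.16, 8.71 and 9.75 in ICN1 replicates 1 to 3 and 10.50, 10.47, 10.47 and 10.60 in TEL-JAK2 replicates 1 to 4. Every TEL-JAK2 array lay above every ICN1 array, and the TEL-JAK2 arrays differed among themselves by far less than the ICN1 arrays (SD 0.06 against 0.52). The difference was 1.30 ± 0.22 (SE, n = 3 and 4), or 2.46-fold, with an adjusted p of 0.00615 by limma. It kept its call without any 1 array, between 1.05 and 1.57, and without ICN1 replicates 1 and 2 (0.75, adjusted p = 0.0233), but not with CD3 centring (0.68, adjusted p = 0.0663). Only 1 probe set carries the symbol Rpl37 alone, and its suffix, _x_at, marks probes that may also bind other transcripts.

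Rpl12, a protein at the base of the stalk, was lower in TEL-JAK2 by its 1 single-symbol probe set. It read 9.61, 9.01 and 9.96 in ICN1 and 8.34, 8.79, 8.70 and 8.94 in TEL-JAK2. The lowest ICN1 array, replicate 2, lay just above the highest TEL-JAK2 array. The difference was -0.84 ± 0.24 (SE), with an adjusted p of 0.0428 by limma, and the fold was 1.79.

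Rpl14, another protein of the large subunit, was lower as well, also by its 1 single-symbol probe set. Its values were 8.52, 8.04 and 8.49 in ICN1 and 7.69, 7.91, 7.23 and 7.64 in TEL-JAK2. Again ICN1 replicate 2 was the lowest of its group and the groups did not overlap. The difference was -0.73 ± 0.19 (SE), with an adjusted p of 0.0302 by limma, and the fold was 1.66.

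Both calls were lost in several fits that left out 1 array, while the differences kept their sign and much of their size. That of Rpl12 was lost when ICN1 replicate 1 (adjusted p = 0.117) or 3 (0.110) was left out, and likewise for TEL-JAK2 replicate 1 (0.101), 2 (0.0785) or 3 (0.0874). The call of Rpl14 was lost when ICN1 replicate 1 (adjusted p = 0.0980) or 3 (0.0878) was left out, and likewise for TEL-JAK2 replicate 1 (0.0655), 3 (0.0511) or 4 (0.0563). In these fits the difference lay between -0.87 and -0.62 for Rpl12 and between -0.75 and -0.60 for Rpl14. Without ICN1 replicates 1 and 2 together, Rpl12 kept its call (-1.27, adjusted p = 0.0301) and Rpl14 did not (-0.87, adjusted p = 0.0952). None of the 3 called genes passed a test against a 1.5-fold difference. Each was represented by its 1 probe set with a single symbol.

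Probe sets that list these genes among several symbols differed less. Rpl37 is listed on 3, with mean levels of 7.22 to 14.01 and differences of -0.14 to 0.05, and 0 were called. Rpl12 is listed on 2, at 13.54 and 13.85, with differences of 0.06 to 0.09, and 0 were called. Rpl14 is listed on 5, at 12.65 to 13.44, with differences of -0.39 to -0.14, of which 1 was called. The difference seen with the single-symbol probe sets of Rpl37 and Rpl12 was therefore not seen with these shared probe sets, whose signal cannot be assigned to 1 gene. Of the 13 members with a mean of 13 or less, 9 are listed on 25 such probe sets, with differences of -0.39 to 0.25 and 1 call. Over all 45037 probe sets tested singly, 19.6% were called.

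**Figure D2:**
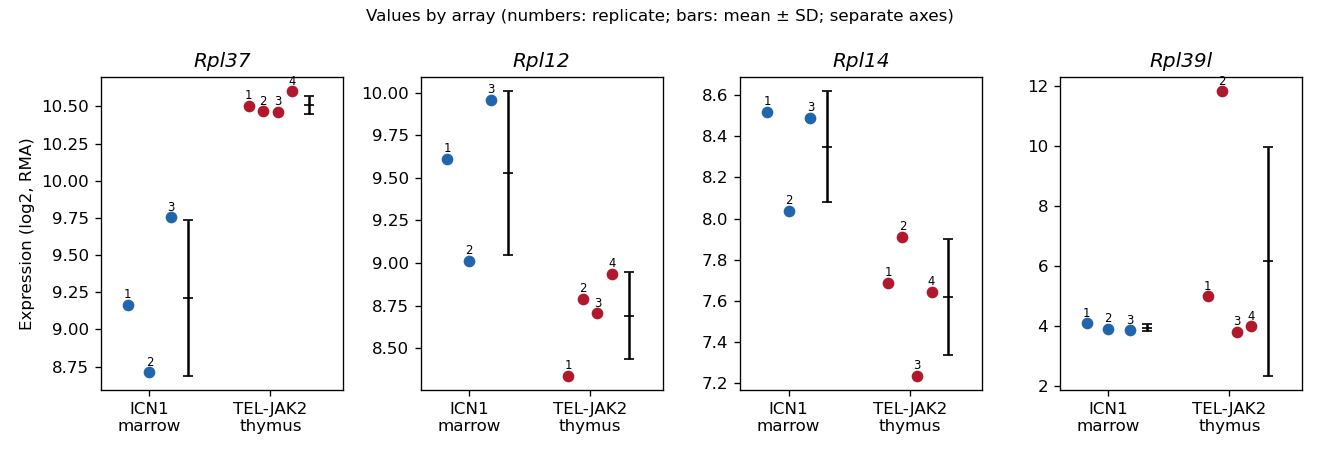
Expression on the log2 scale (vertical axis, a separate range per panel) of Rpl37, Rpl12, Rpl14 and Rpl39l by array, with the replicate number at each point and the mean ± SD of each group beside it. The groups do not overlap in the first 3 panels, and in the last 1 TEL-JAK2 array, replicate 2, reads 11.80 while the other 6 arrays read 3.82 to 4.99.

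Paralogs with restricted expression stood near background, apart from Rps27l and 1 array of Rpl39l. Rpl39l is an autosomal copy of the X-linked Rpl39, known mainly from the testis. It read 4.09, 3.92 and 3.86 in ICN1 and 4.99, 11.80, 3.82 and 3.99 in TEL-JAK2. TEL-JAK2 replicate 2 alone was high, 6.81 above the next array, replicate 1 lay slightly above the ICN1 arrays and replicates 3 and 4 close to them. The difference of 2.20 ± 1.86 (SE) was not called (adjusted p = 0.454 by limma), and it was 0.31 without TEL-JAK2 replicate 2 (adjusted p = 0.549).

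Among all 18193 genes, Rpl39l was the only one that stood more than 4 above every other array in TEL-JAK2 replicate 2, and the next gene in that array, Ifit1bl1, had a margin of 3.78. The same count was 4, 3 and 7 genes in the ICN1 arrays and 0, 0 and 4 in TEL-JAK2 replicates 1, 3 and 4. The measured genes on either side of Rpl39l on chromosome 16 did not follow it. Grin2a read 3.47 and Atf7ip2 3.32 in that array, each below the highest of the other arrays. The parent gene Rpl39 did not stand out there either. It read 7.35, 7.0 and 7.12 in ICN1 and 7.41, 7.46, 7.37 and 7.35 in TEL-JAK2, a difference of 0.24 ± 0.11 (SE, adjusted p = 0.149).

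Rps27l, a paralog of Rps27 known as a target of p53, read 12.10, 11.84 and 12.13 in ICN1 and 12.01, 12.16, 11.33 and 12.01 in TEL-JAK2. The groups overlapped, with TEL-JAK2 replicate 3 the lowest array, and the difference was -0.15 ± 0.21 (SE, adjusted p = 0.663). Rps27 itself, seen here by a probe set of lower signal, averaged 7.10 ± 0.13 (SD, n = 3) and 7.29 ± 0.13 (SD, n = 4). Rpl3l, a paralog of striated muscle, averaged 4.26 ± 0.34 (SD) in ICN1 and 4.07 ± 0.36 (SD) in TEL-JAK2. Rps4l, which RefSeq lists as a transcribed pseudogene, averaged 4.40 in both groups. Its parent Rps4x, on the X chromosome, read 14.14, 14.14 and 14.23 in ICN1 and 14.22, 14.18, 14.24 and 14.18 in TEL-JAK2 (0.03 ± 0.08, SE). The single-symbol probe set of Rps16 also read only 3.54 and 3.51 on average, near background.

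Most members lay at the top of the array scale. In 32 of the 45 the mean over the 7 arrays was above 13, between 13.29 and 14.38, where the highest value of any probe set was 14.86. Probes near the upper end of their range respond less to more RNA, and how far this compressed the differences was not tested. The limit of 13 was set after the values were seen. Of these 32 members 0 were called, 22 differences were positive and 10 negative, and all lay between -0.13 and 0.26, at most 1.20-fold. At an unadjusted p under 0.05 by limma, Rpl13a, Rpl37a and Rps14 passed. Of the 68 other genes above 13, 24 were called (35.3%), and over all 100 genes above 13 the share was 24%.

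The 32 genes moved little from array to array. The median within-group SD was 0.048 for these members, with a range of 0.018 to 0.138, and 0.110 for the other 68 genes at this level. Their mean was 13.91, 13.87 and 13.94 in ICN1 replicates 1 to 3 and 13.95, 13.96, 13.94 and 13.97 in TEL-JAK2. ICN1 replicate 2 was the lowest array and held the lowest value of 17 of the 32 genes, and the groups overlapped between ICN1 replicate 3 and TEL-JAK2 replicate 3. The 15 genes of the small subunit among them averaged 13.91 ± 0.05 (SD, n = 3) and 13.98 ± 0.02 (SD, n = 4), and the 17 of the large subunit and stalk 13.90 ± 0.03 and 13.93 ± 0.01. Differences were positive for 11 of 15 and 11 of 17 genes.

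**Figure D3:**
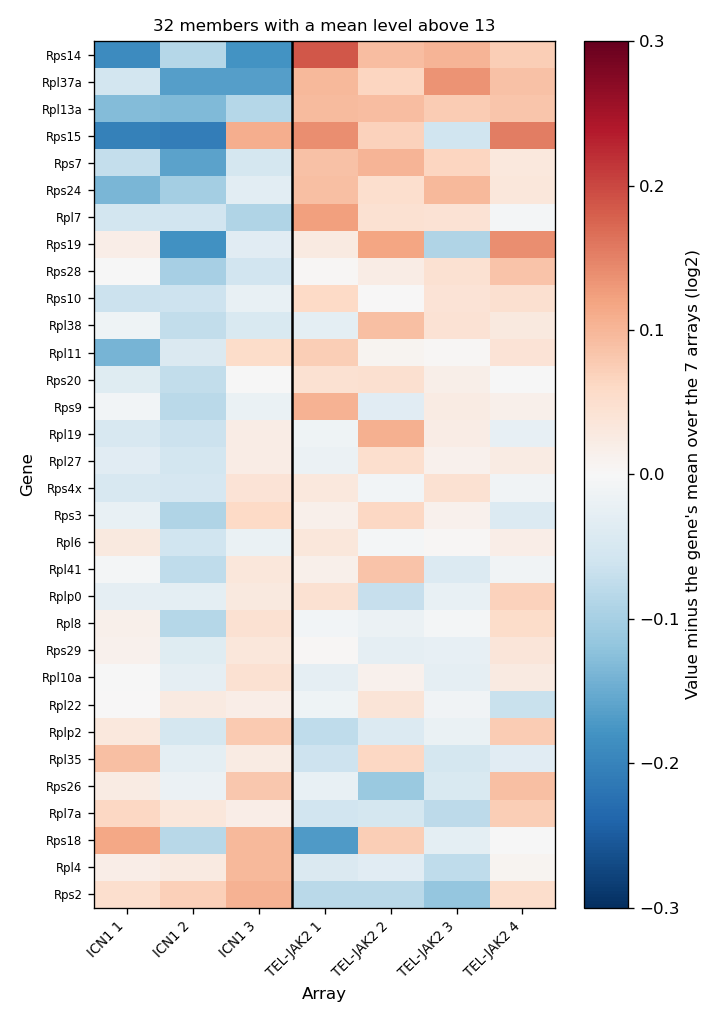
Heat map of the 32 members with a mean above 13, in rows from the largest to the smallest difference, with the 3 ICN1 and 4 TEL-JAK2 arrays in columns. Colour gives the value minus the gene's mean over the 7 arrays on the log2 scale, and the top rows (Rps14, Rpl37a, Rpl13a) are below their mean in all ICN1 arrays and above it in all TEL-JAK2 arrays.

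In 9 of these 32 members the groups did not overlap (28.1%, where the share over all 100 genes above 13 was 46%). Rps14, a small subunit protein, had the largest difference. It read 14.05, 14.16 and 14.06 in ICN1 and 14.43, 14.33, 14.34 and 14.31 in TEL-JAK2, a difference of 0.26 ± 0.08 (SE, adjusted p = 0.0554 by limma). Rpl37a read 14.33, 14.22 and 14.22 against 14.48, 14.45, 14.51 and 14.47 (0.22 ± 0.08, SE, adjusted p = 0.0865). Rpl13a, which outside the ribosome also takes part in silencing inflammatory messages, read 14.03, 14.03 and 14.08 against 14.26, 14.26, 14.24 and 14.25 (0.20 ± 0.08, SE, adjusted p = 0.0987). All TEL-JAK2 arrays were above all ICN1 arrays for these 3 genes, but each fold was at most 1.20 and none was called. Other probe sets of Rpl13a and Rpl37a did not all go this way, the lowest being at -0.24 and -0.25. With the probe sets of each gene averaged, Rps14 was called higher (0.31, adjusted p = 0.0168 by limma). Rpl13a (0.07, adjusted p = 0.561) and Rpl37a (0.06, adjusted p = 0.627) were then not called. With a variance trend and robust moderation, which lets genes of high signal keep a smaller variance, all 3 were called (adjusted p = 0.0187, 0.0291 and 0.0340), whereas with CD3 centring their differences turned to -0.36, -0.40 and -0.42 and Rpl37a was called lower (adjusted p = 0.0490). The other non-overlapping genes were Rps7, Rps24, Rpl7, Rps28 and Rps10, between 0.09 and 0.17, and Rpl4, at -0.08.

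Stalk genes and members known from T-cell leukemia were close to equal with the deposited scaling. Rplp0, the base of the acidic stalk, read 14.18, 14.18 and 14.23 in ICN1 and 14.25, 14.14, 14.18 and 14.27 in TEL-JAK2 (0.01 ± 0.08, SE, adjusted p = 0.919 by limma). Rplp2, which binds elongation factors, read 14.11, 14.03 and 14.16 against 14.01, 14.04, 14.06 and 14.16 (-0.03 ± 0.09, SE, adjusted p = 0.813). The groups overlapped for both.

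Rpl11, which together with RPL5 can bind and inhibit MDM2, read 13.15, 13.24 and 13.34 in ICN1 and 13.36, 13.30, 13.29 and 13.33 in TEL-JAK2 (0.07 ± 0.09, SE, adjusted p = 0.589). Rpl22, an RNA-binding protein of the large subunit whose gene is deleted in a part of human T-cell leukemias, read 13.83, 13.86 and 13.85 against 13.82, 13.87, 13.82 and 13.77 (-0.03 ± 0.08, SE, adjusted p = 0.828). Its paralog Rpl22l1, outside the symbol rule and known to be repressed by RPL22, averaged 13.11 in ICN1 and 12.87 in TEL-JAK2 and was not called either (adjusted p = 0.335). In these 3 genes the groups overlapped. With CD3 centring Rplp0 and Rpl11 turned to -0.61 and -0.55 and were called lower, as were Rplp2 (-0.66) and Rpl22 (-0.65).

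The remaining members had intermediate signal and wider spread. Rpl27a, a large subunit protein, read 9.65, 10.06 and 8.17 in ICN1 and 9.98, 10.11, 9.53 and 9.91 in TEL-JAK2. ICN1 replicate 3 was the lowest array, the groups overlapped, and the difference of 0.59 ± 0.42 (SE) was not called (adjusted p = 0.372 by limma), although it was called in the fit without ICN1 replicates 1 and 2. Rps25 averaged 9.72 ± 0.38 (SD) and 9.70 ± 0.24 (SD). Rps6, the small subunit protein phosphorylated downstream of mTOR, averaged 9.96 ± 0.13 (SD) and 10.01 ± 0.14 (SD).

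Probe sets of the same gene did not always read alike. The 45 members had 98 single-symbol probe sets, and 22 members had more than 1. When all 34945 single-symbol probe sets were tested singly, of which 22.5% were called, 12 of the 98 were called, 4 higher and 8 lower in TEL-JAK2. Of the 56 member probe sets with a mean above 13, 2 were higher and 0 lower. These were the second probe sets of Rps14 (0.35 ± 0.08, SE, adjusted p = 0.0210) and Rps15 (0.47 ± 0.10, SE, adjusted p = 0.0126). That of Rps14 lost its call when any ICN1 array was left out (adjusted p = 0.0516, 0.0541 and 0.0543) and when TEL-JAK2 replicate 1 was (0.0566). Neither was called with CD3 centring (0.165 and 0.473), with centring on the members (0.183 and 0.0571) or without ICN1 replicates 1 and 2 (0.118 and 0.135).

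Dim second probe sets mostly had negative differences. Among genes whose brightest probe set was above 13, 17 member probe sets of 11 genes had a mean under 10 and at least 3 below the brightest, limits chosen after the values were seen. Of these 17, 16 had a negative difference, 6 were called lower (35.3%) and 1 higher, with a median of -0.52. The same limits gave 48 probe sets of other genes, of which 10.4% were lower and 8.33% higher, with a median of -0.09. How many of these 48 had a negative difference was not counted, so the counts of signs have no share beside them. The 6 belonged to Rps9, Rps3, Rps20, which had 2, and Rpl41, which had 2. The count fell to 1 (5.88%) without ICN1 replicate 3 or any 1 of TEL-JAK2 replicates 1, 2 or 3, where 4.17% to 6.25% of the other genes' probe sets were lower, so the contrast in calls was lost there. It was 8 (47.1%, against 10.4%) without ICN1 replicates 1 and 2, while at least 14 of the 17 differences were negative without any 1 array.

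Rps9, which sits near the entry of the message, shows the contrast. The mean of its brightest probe set was 13.93 in ICN1 and 13.99 in TEL-JAK2 (0.06 ± 0.08, SE). Another read 8.62, 7.98 and 9.03 in ICN1 and 7.45, 7.52, 7.38 and 7.54 in TEL-JAK2, without overlap (-1.07 ± 0.23, SE, adjusted p = 0.0137 by limma over the probe sets). Rps3, which lines the entry channel, averaged 13.93 and 13.96 with its brightest probe set, while another read 9.40, 9.39 and 10.21 against 8.71, 8.67, 8.17 and 9.21 (-0.97 ± 0.29, SE, adjusted p = 0.0484). In both genes ICN1 replicate 3 was the highest array of the dim probe set. The 1 higher was a probe set of Rpl22 (0.52 ± 0.15, SE, adjusted p = 0.0435), whose brightest probe set differed by -0.03. What these dim probe sets bind within or beside the transcripts was not analysed here.

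**Figure D4:**
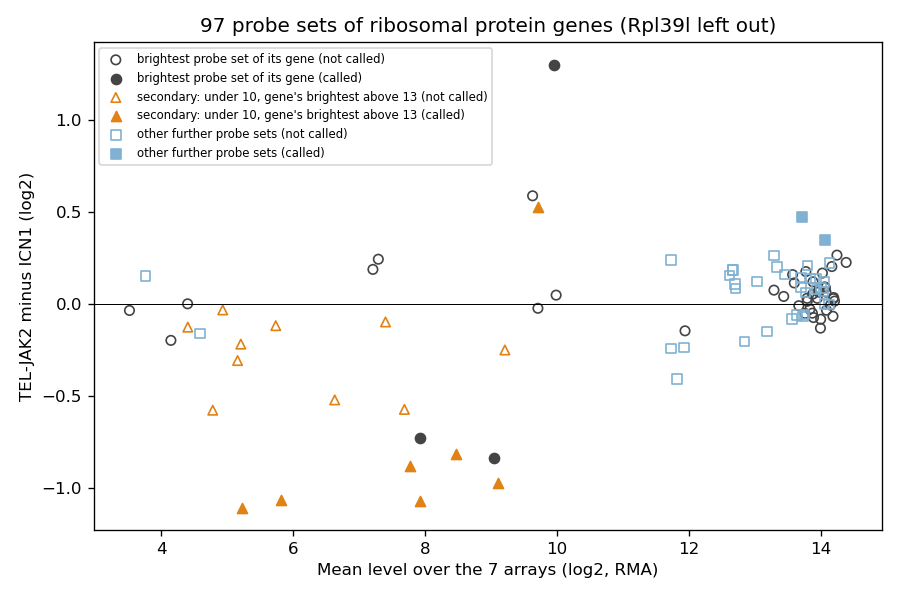
Mean level over the 7 arrays (horizontal axis, log2) and difference TEL-JAK2 minus ICN1 (vertical axis, log2) of every member probe set but that of Rpl39l, and filled symbols for those called by limma over all single-symbol probe sets. Most probe sets above 13 lie near 0, while the called second probe sets of Rps15 (0.47) and Rps14 (0.35) lie above it. Of the 17 triangles, which are dim second probe sets of bright genes, 16 lie below 0.

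Probe sets shared between several symbols were examined as a group. Of 110 probe sets with several symbols of which at least 1 fits the rule, 3 were higher and 4 lower, where 19.6% of all 45037 probe sets were called, and the median difference was 0.02, with a range of -1.89 to 4.49. The 71 of them above 13 lay between -0.22 and 0.22 and 0 were called. Their transcripts cannot be assigned to single genes.

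Lists of genes around the ribosome held more lower than higher calls in TEL-JAK2, except for ribosomal proteins outside the symbol rule and the genes of p53 surveillance. In the list of the mTOR arm and regulators of TOP messages this was only 1 of 17 genes (5.88%). That share was below the 12.2% of all genes called lower. Of 5 measured ribosomal proteins outside the symbol rule, Fau, which encodes a small subunit protein fused to a ubiquitin-like part, was higher. It read 13.45, 13.24 and 13.40 in ICN1 and 13.67, 13.74, 13.69 and 13.70 in TEL-JAK2 (0.34 ± 0.09, SE, adjusted p = 0.0299 by limma). The other 4 were not called, among them Rpsa at -0.13 ± 0.09 (SE) and Rps3a1 at 0.03 ± 0.08 (SE). Fau was not called without ICN1 replicates 1 and 2, nor with either centring, and of the fits that left out 1 array it was called in that without ICN1 replicate 1 alone.

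Mitochondrial ribosomal proteins, which form the separate ribosome of the mitochondrion, had 21 of 76 members lower and 3 higher, with a median difference of -0.25. The lower members with the largest differences were Mrps22 (-0.99 ± 0.16, SE), Mrps10 (-0.94 ± 0.25) and Mrps27 (-0.93 ± 0.13), and Mrpl24 (0.73 ± 0.15), Mrpl33 (0.58 ± 0.12) and Mrps35 (0.50 ± 0.14) were the 3 higher. The count of lower members ranged from 9 to 24 without any 1 array. It was 9 (11.8%) without ICN1 replicate 1, ICN1 replicate 3 or TEL-JAK2 replicate 1. In these fits 9.9%, 10.5% and 9.26% of all genes were lower, so little of the contrast was left. The count of 24 (31.6%, against 10.1% of all genes) came without TEL-JAK2 replicate 2. Without ICN1 replicates 1 and 2 it was 6 (7.89%), below the 8.56% of all genes called lower in that fit. With each array centred on the cytosolic members it was 31 (40.8%, against 13.8% of all genes), and with CD3 centring 63 (82.9%, against 62.7%).

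Of 32 measured initiation factors 10 were lower, 3 higher and 19 not called, with a median of -0.23. Eif5, which activates the GTPase step at the start codon, differed by -1.15 ± 0.13 (SE), Eif2b3, a subunit of the exchange factor eIF2B, by -0.98 ± 0.19 and the cap-binding Eif4e by -0.79 ± 0.16. The 3 higher were the eIF3 subunits Eif3m (0.39 ± 0.11), Eif3f (0.35 ± 0.10) and Eif3h (0.32 ± 0.09). At most 1 of them was higher in any fit that left out 1 array. In those fits 5 to 8 initiation factors were lower (15.6% to 25%, against 9.26% to 11.4% of all genes). Without ICN1 replicates 1 and 2, 6 initiation factors were lower (18.8%, against 8.56% of all genes) and 0 higher. Of 9 elongation and release factors 3 were lower, namely Eif5a2 (-2.17 ± 0.51) and the release factors Gspt1 (-0.91 ± 0.20) and Etf1 (-0.86 ± 0.18). Eef1a1, the carrier of aminoacyl-tRNA, averaged 14.34 in ICN1 and 14.39 in TEL-JAK2 and was not called (0.05 ± 0.08).

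Of 7 chaperones that each escort a ribosomal protein, 3 were lower. Grwd1, the partner of RPL3, differed by -0.94 ± 0.21 (SE), Tsr2, the partner of RPS26, by -0.69 ± 0.10 and Heatr3, the partner of RPL5, by -0.68 ± 0.15. Their client Rps26, the one measured here, differed by -0.05 ± 0.09. Of 17 genes of the mTOR arm and regulators of TOP messages 1 was lower, Eef2k, the kinase that inhibits elongation factor EEF2 (-1.09 ± 0.22). Mtor (0.11 ± 0.13) and Larp1 (-0.08 ± 0.19) were not called. Mdm2 (0.56 ± 0.23), Mdm4 (0.27 ± 0.21) and Cdkn1a (0.93 ± 0.30), read for the surveillance of free RPL5 and RPL11, were not called either, with adjusted p between 0.0615 and 0.402. Lower calls made up 27.6% of the mitochondrial ribosomal proteins, 31.2% of initiation factors and 33.3% of elongation and release factors. The share was 42.9% for the chaperones and 5.88% for the mTOR list, beside 12.2% of all genes. In the fit without dim genes these shares were, in the same order, 30.3%, 28.1%, 33.3%, 42.9% and 5.88%. There 21.2% of all genes were lower. Of the markers given above, all erythroid but only part of the granulocyte and macrophage genes were called lower in TEL-JAK2. Their part in these lists was not tested.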

How the data were processed

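RNA of 7 leukemic cell suspensions was measured on Affymetrix mouse arrays, 1 array each. The authors deposited log2 values per probe set, made with RMA per the submitters' processing notes (version and settings not given in the sources used here), with array medians of 5.44 to 5.50. RMA draws the arrays toward 1 distribution, so total RNA cannot be compared. The number of arrays limits the precision.

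Probe sets were named from the platform annotation, where 34945 of 45037 had 1 symbol, 932 several and 9160 none. All 18193 genes, each by its brightest single-symbol probe set, were fitted with limma 3.58.1 in R 4.3.3 (lmFit, eBayes, two-sided), and adjusted by Benjamini-Hochberg. The fit was tested on simulated data with 200 of 18193 genes changed. It recovered 57 of 100 changes of log2 1 and 86 of 100 of log2 2, with 2 false calls. In the real data 24.1% of all genes were called, so these rates need not hold for them or for the members. Genes that were not called may still differ. Figures used matplotlib 3.10.9. The members, lists and alternatives were chosen with earlier results of these data known. Alternatives were probe set means, no _x_at or _s_at probe sets, probe sets tested singly, no dim genes, median, quantile, cyclic loess, CD3 and member centring, other moderation, array weights, a test against 1.5-fold, a stricter threshold and each array left out. Named genes were called members (up to 8 per direction), paralogs with their parents, stalk genes, Rpl11 and Rpl22, members of counts of 5 or fewer, and up to 3 called genes per direction and list. Rps14, Rpl37a, Rpl13a, Rps15, Rps9, Rps3, Rpl27a, Rps25, Rps6, Rps16 and the list genes that were not called were named after their values were seen.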

Additional observations from a re-analysis of the deposited data

Results flagged for a closer look

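Among the 4 TEL-JAK2 arrays, 3 genes had an array far from the other 3 relative to the range of the group, out of 47 sets of values tested. By chance about 1 in 20 would be flagged, so the count was near that share. Rpl39l read 11.80 in TEL-JAK2 replicate 2, against 3.82 to 4.99 in the other TEL-JAK2 arrays. Rpl7a read 14.25 and Rpl8 13.85 in TEL-JAK2 replicate 4, each the highest of its group, with a within-group SD of 0.07 and 0.03.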

How the results depend on the processing

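The count of higher members was 3 when probe sets were averaged per gene, 0 without _x_at and _s_at probe sets, 2 with cyclic loess, 0 with CD3 centring, 4 with trend and robust moderation, 2 with array weights, 0 against 1.5-fold and 2 without ICN1 replicates 1 and 2. That of lower members was 5 without _x_at and _s_at probe sets, 35 with CD3 centring, 0 against 1.5-fold, 0 at an adjusted p under 0.01 and 1 without ICN1 replicates 1 and 2. Without any 1 array the counts ranged from 1 to 1 higher (2.22%) and from 0 to 2 lower (at most 4.44%). In those fits 8.38% to 11.9% of all genes were higher and 9.26% to 11.4% lower. Higher members were 6.67% with probe set means and 8.89% with trend and robust moderation, against 11.5% of all genes in each. They were 4.44% with cyclic loess and with array weights, against 11.9% and 12.9%. Lower members were 12.5% without _x_at and _s_at probe sets, against 12.2%, and 77.8% with CD3 centring, against 62.7%. The median difference was -0.59 with CD3 centring and -0.059 with centring on the members. Dim second probe sets called lower were 15 with CD3 centring (88.2%, against 70.8% of those of other genes). Without any 1 array they ranged from 1 to 6 (5.88% to 35.3%, against 4.17% to 12.5%). The cause of these changes was not tested, but removing _x_at and _s_at probe sets left 40 members and a dim probe set for some bright genes.

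Signs turned for small differences. With CD3 centring Rps4l was at -0.62, Rpl39 -0.38, Rps27 -0.44, Rps4x -0.59, Rplp0 -0.61, Rpl11 -0.55, Rps14 -0.36, Rpl13a -0.42 and Rpl37a -0.40. With centring on the members Rps4l was at -0.093, Rps4x -0.059, Rplp0 -0.078 and Rpl11 -0.018. Rps4x was at -0.042 and Rpl22 at 0.10 with probe set means, Rps4l at -0.027 and Rplp0 at -0.016 after quantile normalization, Rps4l at -0.044, Rplp2 at 0.00089 and Rpl22 at 0.0057 with cyclic loess, and Rps4l at -0.036 with array weights. Without ICN1 replicates 1 and 2, Rps4x was at -0.025, Rplp0 at -0.024 and Rpl11 at -0.023. Without any 1 array Rps4l ranged from -0.12 to 0.15, Rps27l from -0.24 to 0.035 and Rplp0 from -0.0056 to 0.040. The alternative without ICN1 replicates 1 and 2, and those on dim second probe sets, were chosen after seeing the data. Signals near the top of the scale and near background limit what these arrays can show. No paired analysis was possible because the labels give the groups no shared replicate numbers.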
